A study of Mus musculus with 3 samples.

Results

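miR-31, miR-195a and miR-497a are miRNAs that have been studied in satellite cells, the stem cells of skeletal muscle. Their levels were followed as 4 mature miRNAs, mmu-miR-31-5p, mmu-miR-31-3p, mmu-miR-195a-5p and mmu-miR-497a-5p, of the 1138 mature mouse miRNAs counted in the tibialis anterior (TA) muscle after cardiotoxin (CTX) injury. The 4 were chosen by name, with their read counts on the 3 days already known, so their changes are described here without a test. All 4 were found in each library, and no filter on low values was needed to keep them.

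The muscles came from wildtype C57BL/6 mice aged 10 weeks. They were taken on day 0 and on days 1 and 3 after an injection of CTX, a toxin of cobra venom that kills myofibers and spares satellite cells, which then rebuild the muscle. The authors call the day 0 muscles uninjured. They name saline as the control injection but do not say whether the day 0 muscles received it. Each library, of RNAs of 18 to 30 nucleotides, was made from a pool of 4 samples. The 3 libraries held 8507580, 6421056 and 9795076 reads on days 0, 1 and 3. The design gives no replicate within a time point, so a difference between days cannot be told apart from a difference between pools or library preparations.

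An miRNA is cut from a hairpin precursor, which can yield a mature miRNA from its 5′ arm (5p) and another from its 3′ arm (3p). The mature miRNA guides a silencing complex to mRNAs that pair with its seed, bases 2 to 8. In satellite cells, miR-195 and miR-497 have been described as favouring quiescence, by repressing cell cycle genes such as Cdc25a, Cdc25b and Ccnd2, and miR-31 as holding back the translation of Myf5, a transcription factor of the myogenic lineage. RNA was extracted here from whole muscle, in which fewer cells of a type and less RNA per cell cannot be told apart, and the cell type that carried each miRNA was not measured. miR-489-3p, another miRNA described as keeping satellite cells quiescent, had 2, 2 and 1 reads on days 0, 1 and 3, under the 3 reads taken here as the smallest detectable count. It was named after its values were seen and was an exception in the list of satellite cell and myoblast miRNAs described below. Of the 29 miRNAs of that list found in these data, 28 reached 10 reads on both days of each comparison.

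The mature sequences are shown first because they group the 4 miRNAs, with the seed in capitals. They are from RefSeq on GRCm38.p6, the build named for these data.
mmu-miR-31-5p: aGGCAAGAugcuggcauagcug
mmu-miR-31-3p: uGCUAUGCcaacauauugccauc
mmu-miR-195a-5p: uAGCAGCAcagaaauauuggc
mmu-miR-497a-5p: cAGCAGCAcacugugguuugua

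miR-195a-5p and miR-497a-5p have the same seed and differ at 9 of 21 bases when aligned from the 5′ end. The arms of miR-31 have a seed each, and no other mature miRNA in the RefSeq table carries either of them. The seed of miR-195a-5p and miR-497a-5p is carried by 10 miRNAs of that table, of which 6 are listed in these data. The other 4 listed carriers are miR-15a-5p, miR-15b-5p, miR-16-5p and miR-322-5p, members of a family known for targeting cell cycle genes.

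The hairpins show how the mature miRNAs are linked, with both arms in capitals. The Mir31 hairpin yields both miR-31 miRNAs and lies on chromosome 4 from 88910557 to 88910662 on the minus strand, inside exon 3 of the long noncoding RNA AL805899.1 of GENCODE M21, which runs on the same strand. The Mir497 hairpin lies on chromosome 11 from 70234717 to 70234800 on the plus strand, and the Mir195a hairpin lies on the same strand from 70235042 to 70235135. Only 241 bases separate this pair, and GENCODE M21 lists no other gene on their strand there.
Mir31: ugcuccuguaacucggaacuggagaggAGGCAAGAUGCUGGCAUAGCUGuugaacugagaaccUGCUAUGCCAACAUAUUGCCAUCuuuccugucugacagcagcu
Mir497: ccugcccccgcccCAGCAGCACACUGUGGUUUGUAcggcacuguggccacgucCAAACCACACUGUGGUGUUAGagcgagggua
Mir195a: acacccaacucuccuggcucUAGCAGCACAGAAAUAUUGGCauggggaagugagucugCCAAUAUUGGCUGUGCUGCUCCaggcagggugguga

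The mRNAs named above carry letters that pair with these seeds in their 3′ UTRs, shown because they are what the seeds are thought to act on. TCTTGCC, the reverse complement of the miR-31-5p seed, was searched on the transcript strand only. It occurs 1 time in the 3′ UTR of Myf5 (transcript Myf5-201), at bases 117 to 123 after the stop codon, and is found in 9.64% of the mouse 3′ UTRs within 20% of its length. TGCTGCT, which pairs with the seed shared by miR-195a-5p and miR-497a-5p, occurs 2 times in Cdc25a, 1 time in Cdc25b and 1 time in Ccnd2, against 24.9%, 19.0% and 54.4% of 3′ UTRs of like length. Such a match is a description and not a shown site, and no mRNA was measured in these libraries. The match in Myf5 and the first match in Cdc25a are shown in capitals.
Myf5: ttgtaaatactgTCTTGCCactttatg
Cdc25a: aagccgcccaagTGCTGCTggccaaat

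The level of an miRNA is given in CPM, its reads per 1000000 reads of the library, with a 95% Wilson interval. This interval and those of the ratios below cover counting error only, and not differences between pools or library preparations. PCR copies of 1 molecule were counted as separate reads, so the intervals may be too narrow even for counting error. Intervals that do not overlap are therefore no test of a difference between days. CPM is a share of the library, so it also moves when abundant miRNAs are lost. Over the miRNAs that reached 10 reads on both days compared, the median log2 change against day 0 was 0.90 on day 1 (393 miRNAs) and 0.93 on day 3 (407 miRNAs), and the changes of the 4 miRNAs against day 0 are therefore also given relative to that median. Other changes are on the total-read scale unless stated. A change counted as past the threshold when it reached 2-fold.

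Both arms of miR-31 were scarce on day 0, higher on day 1 and abundant on day 3. miR-31-5p had 45, 127 and 7503 reads in the libraries of days 0, 1 and 3, levels of 5.29 CPM (3.95 to 7.08), 19.8 CPM (16.6 to 23.5) and 766 CPM (749 to 784). Its intervals did not overlap between any of the days, and its abundance rank among all miRNAs went from 285 on day 0 to 75 on day 3. The level on day 3 was 145 times that on day 0 and 38.7 times that on day 1. Against day 0, its log2 change was 1.90 (95% counting interval 1.40 to 2.43) for day 1 and 7.18 (6.76 to 7.63) for day 3. Relative to the median miRNA these changes were 1.00 and 6.25. The change on day 3 was the second highest of the 407 miRNAs with at least 10 reads on both days, whereas the change on day 1 ranked 103 of 393.

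miR-31-3p, from the other arm of the hairpin, took the same course at a lower level. Its 6, 28 and 1184 reads gave levels of 0.705 CPM (0.323 to 1.54), 4.36 CPM (3.02 to 6.30) and 120.9 CPM (114.2 to 128.0). The log2 change against day 0 was 2.63 (1.33 to 4.19) for day 1 and 7.42 (6.29 to 8.87) for day 3, with wide intervals because day 0 had 6 reads. Relative to the median miRNA these changes were 1.72 and 6.49. From day 1 to day 3 the change was 4.79 (4.25 to 5.39) for miR-31-3p and 5.28 (5.02 to 5.54) for miR-31-5p, with intervals that overlapped.

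miR-195a-5p was high on day 1 and low on day 3. It had 3359, 9697 and 2375 reads in the libraries of days 0, 1 and 3, which is 395 CPM (382 to 408), 1510.2 CPM (1480.4 to 1540.5) and 242 CPM (233 to 252). The day 1 library held 3.82 times the level of day 0 and 6.23 times that of day 3. The log2 change against day 0 was 1.94 (1.88 to 1.99) for day 1 and -0.70 (-0.78 to -0.63) for day 3. Relative to the median miRNA it was 1.03 and -1.64, and it was -2.64 (-2.70 to -2.57) from day 1 to day 3, the eighth lowest change of 476 miRNAs.

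miR-497a-5p was the steadiest of the 4. With 8376, 8492 and 14433 reads, it stood at 985 CPM (964 to 1006), 1323 CPM (1295 to 1351) and 1473 CPM (1450 to 1498) in the same order of days. The log2 change against day 0 was 0.43 (0.38 to 0.47) on day 1 and 0.58 (0.54 to 0.62) on day 3, under the threshold on both days. Its direction turned with the scaling, since relative to the median miRNA the same changes were -0.48 and -0.35. With the TMM factors of edgeR, which assume that most miRNAs do not change, they were -0.52 and -0.34.

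**Figure D1:**
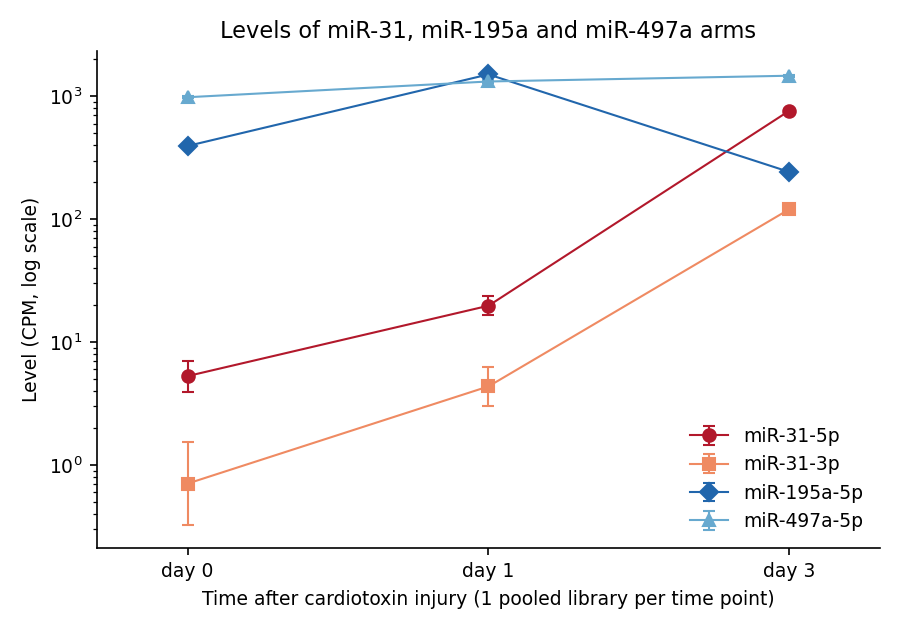
Level of each of the 4 miRNAs in CPM (log axis) in the pooled library of day 0, day 1 and day 3; points are single libraries, error bars are 95% Wilson counting intervals, and lines join the libraries for reading only. miR-31-5p and miR-31-3p run upward to 766 and 120.9 CPM on day 3, miR-195a-5p peaks at 1510.2 CPM on day 1, and miR-497a-5p stays between 985 and 1473 CPM.

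The order of the 4 levels therefore changed from day to day. On day 0 it ran from miR-497a-5p through miR-195a-5p and miR-31-5p to miR-31-3p. On day 1 miR-195a-5p was above miR-497a-5p, and on day 3 miR-31-5p was above miR-195a-5p. miR-195a-5p had 74.6 times the reads of miR-31-5p on day 0 (55.7 to 102.5) and 76.4 times on day 1 (64.1 to 91.7), ratios whose intervals overlapped. On day 3 miR-31-5p had 3.16 times the reads of miR-195a-5p (3.02 to 3.31). Within every library the counting intervals of neighbouring levels did not overlap.

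Of the 4 miRNAs, 3 were at least 2-fold higher on day 1 than on day 0 and 0 were lower, where 36.3% of the 998 miRNAs with a read were higher and 8.02% were lower. On day 3, both miR-31 arms were at least 2-fold higher than on day 0 and 0 were lower, beside 36.8% and 7.29% of 1056 miRNAs. Between day 1 and day 3, both miR-31 arms were higher and miR-195a-5p was lower, beside 15.9% and 13.0% of 1104 miRNAs. The members were known to change when they were chosen, so nothing is read from these counts. With TMM factors, 22.0% of miRNAs were higher and 16.3% lower on day 1, and 23.8% and 15.8% on day 3. Under these factors the log2 change on day 1 was 0.96 for miR-31-5p and 0.99 for miR-195a-5p, both just under the threshold, and 1.68 for miR-31-3p. On day 3 it was 6.25 for miR-31-5p, 6.49 for miR-31-3p and -1.63 for miR-195a-5p, which thereby passed the threshold downward. The high day 3 level of miR-31 thus held under either scaling, whereas the calls for miR-195a-5p on both days depended on it.

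**Figure D2:**
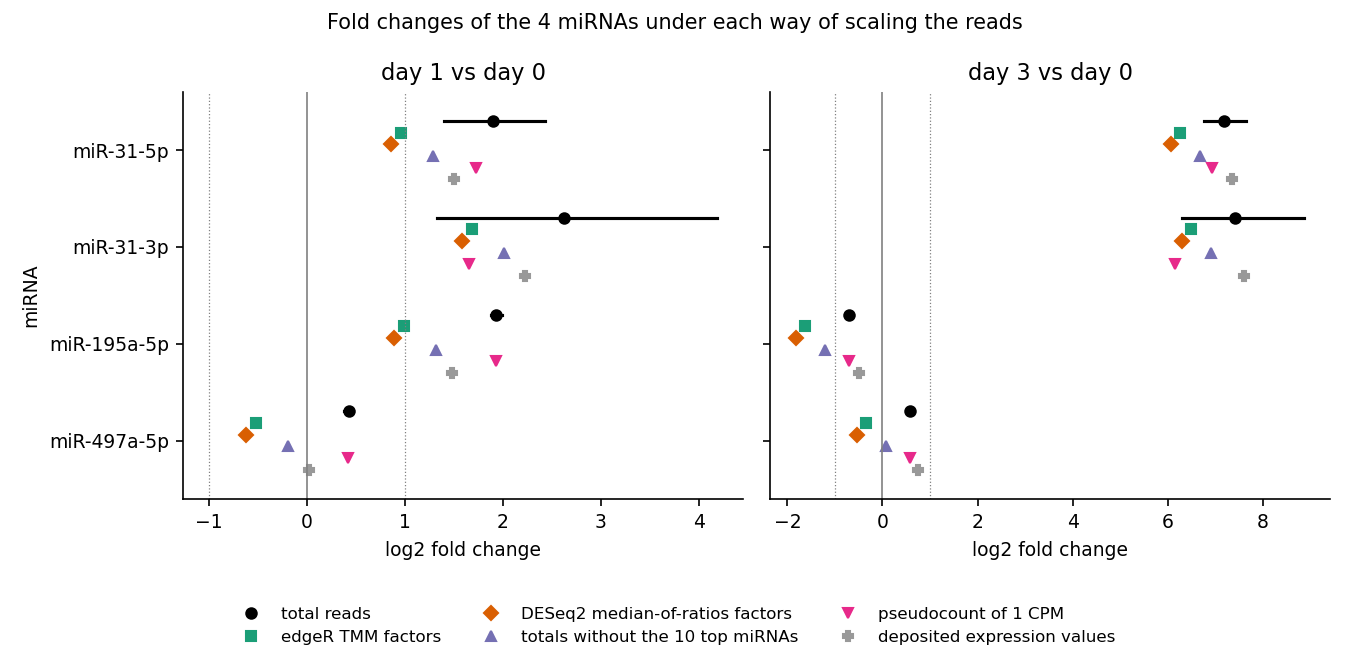
log2 fold change of each miRNA on day 1 (left) and day 3 (right) against day 0 for 6 ways of treating the reads; black circles are reads scaled to the library total with their 95% counting interval as a bar, and dotted lines mark 2-fold. miR-31-5p and miR-31-3p stay far to the right on day 3, and the values of miR-497a-5p fall on both sides of 0.

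Ratios between miRNAs of the same library do not depend on how libraries are scaled. miR-195a-5p and miR-497a-5p, which lie next to each other in the genome, were compared in this way. On day 0 there were 0.401 reads of miR-195a-5p (0.385 to 0.417) for each read of miR-497a-5p. The ratio was 1.14 (1.11 to 1.18) on day 1 and 0.165 (0.157 to 0.172) on day 3. It was thus highest on day 1 and lowest on day 3, and none of the 3 intervals overlapped. The neighbouring miRNAs did not keep a fixed proportion in these libraries.

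The other arm of the Mir195a hairpin moved less than miR-195a-5p did. miR-195a-3p had 94, 117 and 136 reads, or 11.05 CPM (9.03 to 13.5), 18.2 CPM (15.2 to 21.8) and 13.9 CPM (11.7 to 16.4). Its log2 change against day 0 was 0.72 (0.32 to 1.13) for day 1 and 0.33 (-0.06 to 0.72) for day 3, the latter with an interval that contains 0. Its direction also turned with the scaling, since relative to the median miRNA the changes were -0.18 and -0.60, and with TMM factors -0.22 and -0.60. Of all reads from this hairpin's arms, miR-195a-3p accounted for 2.72% (2.23 to 3.32) on day 0, 1.19% (0.996 to 1.43) on day 1 and 5.42% (4.60 to 6.37) on day 3. The intervals were separate on all 3 days, and the share was lowest on day 1. miR-195a-5p is part of the denominator of this share, so its high level on day 1 lowers the share and the low is no separate observation.

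The other arm of the Mir497 hairpin was hardly seen. miR-497a-3p had 6 reads on day 1 and 0 reads in both other libraries. On the opposite strand, the Mir497b hairpin covers all 84 bases of Mir497, and miR-497b had 1, 2 and 2 reads.

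The arms of miR-31 kept closer to a fixed proportion. miR-31-3p accounted for 11.8% (5.51 to 23.4) of their reads on day 0, 18.1% (12.8 to 24.9) on day 1 and 13.6% (12.9 to 14.4) on day 3. All 3 intervals overlapped one another, with that of day 0 resting on 51 reads, so a difference in the share was not detectable at this depth.

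**Figure D3:**
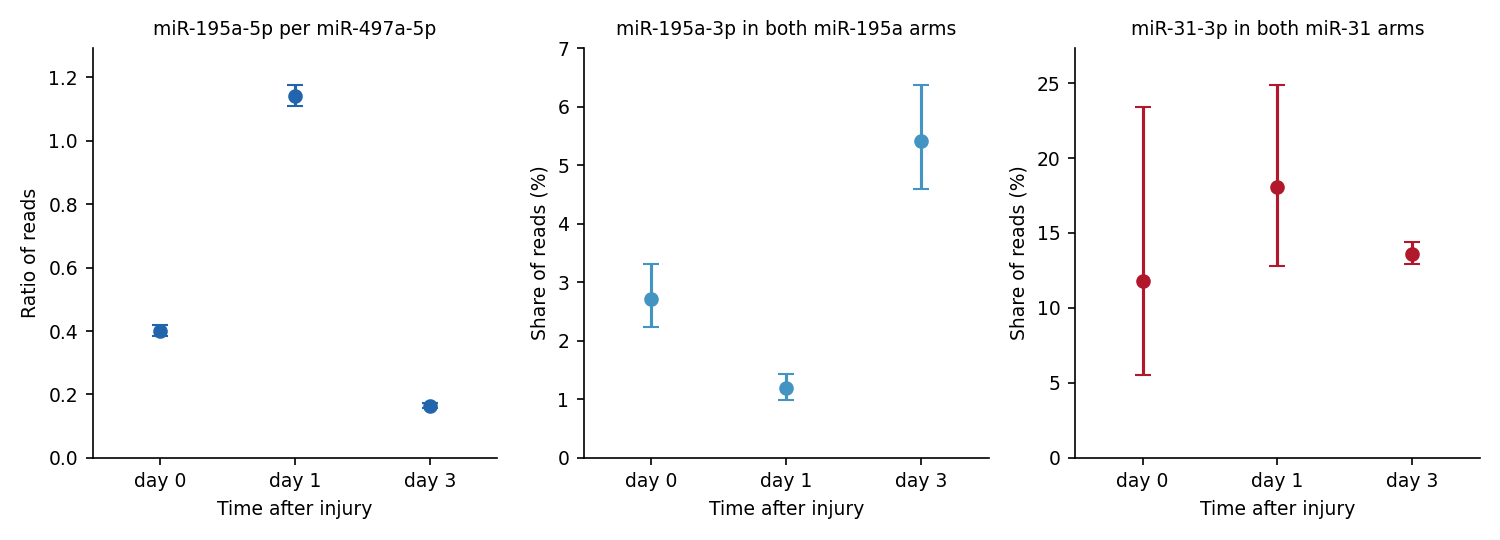
Ratios within each library on days 0, 1 and 3: reads of miR-195a-5p per read of miR-497a-5p (left), share of miR-195a-3p in the reads of both miR-195a arms (middle, %), and share of miR-31-3p in those of both miR-31 arms (right, %); bars are 95% counting intervals. The first ratio peaks at 1.14 on day 1 and the second is lowest then at 1.19%, whereas the 3 intervals on the right overlap. The left and middle panels both contain miR-195a-5p and are not independent.

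Among the miRNAs with the seed of miR-195a-5p and miR-497a-5p, these 2 were minor members, shown here beside the carriers that had the most reads.
mmu-miR-16-5p: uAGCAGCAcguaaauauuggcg
mmu-miR-322-5p: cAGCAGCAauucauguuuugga
mmu-miR-15a-5p: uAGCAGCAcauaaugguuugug

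The 6 listed carriers together had 17965, 51603 and 32806 CPM on days 0, 1 and 3. miR-195a-5p held 2.20%, 2.93% and 0.739% of these reads. miR-497a-5p held 5.48%, 2.56% and 4.49%. miR-16-5p, the most abundant, held 59.1%, 73.6% and 68.4%, and miR-322-5p held 26.2%, 11.5% and 15.1%.

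On day 3, miR-195a-5p was the only 1 of the 6 below its day 0 level in CPM. The others had log2 changes against day 0 of 1.08 for miR-16-5p, 1.09 for miR-15a-5p, 3.07 for miR-15b-5p, 0.08 for miR-322-5p and 0.58 for miR-497a-5p. With TMM factors miR-322-5p was also lower on day 3, at -0.85, as was miR-497a-5p.

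miR-195a-5p is close in sequence to miR-16-5p. Counted from 1 at the 5′ end of miR-195a-5p, the substitutions toward miR-16-5p are A10G and G11U, and the other 19 compared bases are the same. miR-16-5p had 26.9 times the reads of miR-195a-5p (26.0 to 27.8) on day 0, 25.1 times (24.6 to 25.7) on day 1 and 92.5 times (88.8 to 96.3) on day 3. With the deposited expression values in place of reads, the ratios were 17.6, 11.5 and 41.9, in the same order of days as the read ratios. These values were 63.9%, 43.1% and 44.5% of the reads for the abundant miR-16-5p on days 0, 1 and 3, and 97.4%, 94.1% and 98.2% for miR-195a-5p. How many mismatches the counting allowed is not given in the sources used here, and the part of misassigned miR-16-5p reads in the level of miR-195a-5p was not tested.

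**Figure D4:**
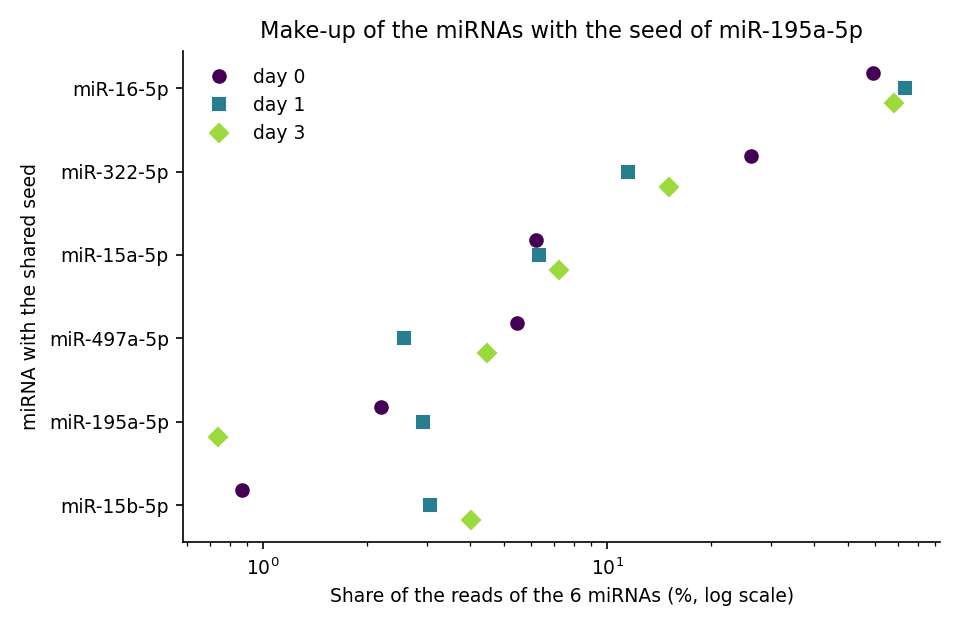
Share of each of the 6 listed miRNAs with the seed of miR-195a-5p in their summed reads (%, log axis) on days 0, 1 and 3, 1 library each. miR-195a-5p moves from 2.20% on day 0 to 2.93% on day 1 and 0.739% on day 3, while miR-16-5p holds the largest share on each day.

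The miRNAs whose course was most like that of each of the 4 were found from the log2 changes on days 1 and 3 against day 0, with 1 CPM added, among 396 miRNAs with at least 100 reads in all. Likeness was the straight-line distance between these pairs of changes, over 3 libraries. Nearest to miR-31-5p (1.72 and 6.93) was miR-31-3p (1.65 and 6.16), followed by miR-351-5p (2.24 and 5.54) and miR-335-3p (2.31 and 5.56). The same miR-351-5p and miR-335-3p came next after miR-31-5p for miR-31-3p. They went from 14.6 to 721.8 CPM and from 5.64 to 312.5 CPM between day 0 and day 3. miR-31-3p, with 6, 28 and 1184 reads, passed the limit of 100 reads only through its day 3 count. The added 1 CPM was above its 0.705 CPM on day 0 and lowered its changes from 2.63 and 7.42. Its place among these miRNAs thus depends on that setting.

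Nearest to miR-195a-5p (1.93 and -0.70) were miR-124-3p (2.10 and -0.25), miR-30d-5p (1.44 and -0.55) and miR-126a-5p (1.65 and -0.20). miR-124-3p had only 16, 73 and 14 reads, whereas miR-126a-5p, known from endothelial cells, had 13535, 32177 and 13551. Nearest to miR-497a-5p (0.43 and 0.58) were miR-701-5p, miR-1191a and miR-29a-3p, all within a distance of 0.164.

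**Figure D5:**
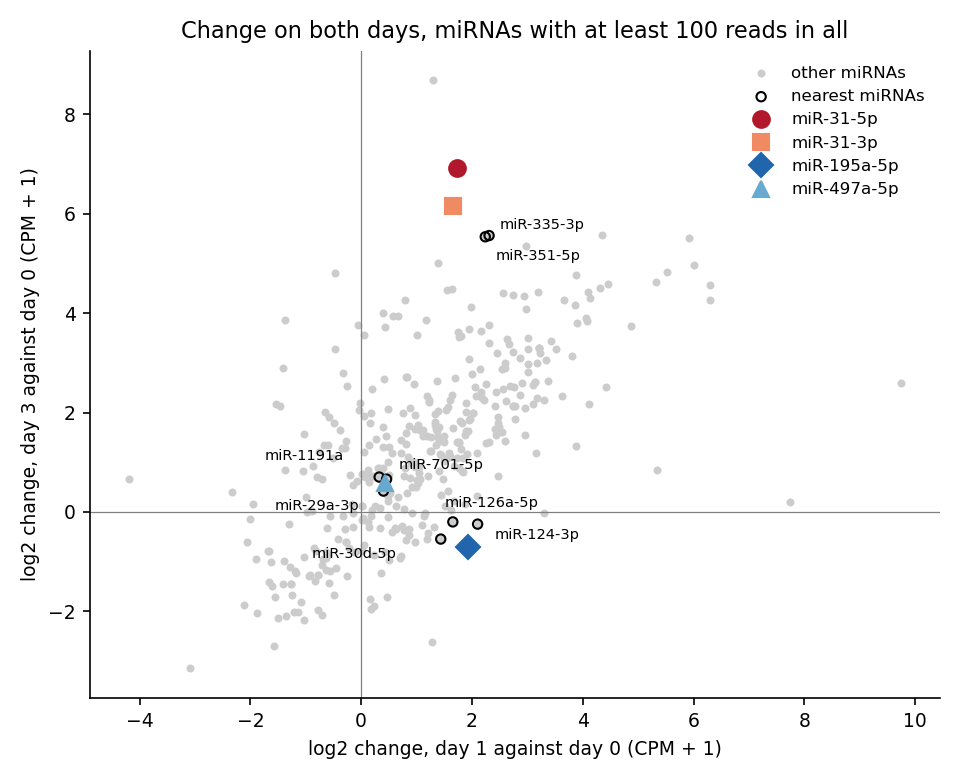
log2 change on day 1 (horizontal axis) and day 3 (vertical axis) against day 0, with 1 CPM added, for the 396 miRNAs with at least 100 reads in all; coloured marks are the 4 miRNAs and open circles the 3 nearest to each. The miR-31 arms lie near the top at 6.93 and 6.16 on the day 3 axis, miR-195a-5p lies at the lower right of the main cloud at 1.93 and -0.70, and miR-497a-5p lies within it.

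Markers of other cells also differed between the days. The summed level of 7 myofiber miRNAs was 262030, 86918 and 97532 CPM on days 0, 1 and 3. Most of this sum was miR-1a-3p, at 233587, 73841 and 88096 CPM. The 2 arms of endothelial miR-126a summed to 59427, 132923 and 58732 CPM, and the 2 erythroid miRNAs, miR-451a and miR-144-3p, to 7142, 25326 and 12560 CPM. These sums were mostly miR-126a-3p (57836, 127912 and 57349 CPM) and miR-451a (7099, 25178 and 12479 CPM). The endothelial and erythroid lists were highest on day 1, as were miR-195a-5p and the leukocyte and epithelial lists.

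The summed level of 7 leukocyte miRNAs was 5355, 21028 and 9269 CPM, and that of 6 epithelial miRNAs was 26.6, 209.8 and 122.0 CPM. The 3 stromal miRNAs (both arms of miR-199a and miR-214-3p) summed to 2020, 3692 and 6244 CPM, highest on day 3. miR-31, miR-206-3p and miR-351-5p were also highest on that day. miR-199a-3p and miR-199b-3p had the same log2 changes with 1 CPM added (1.07 and 1.64 on days 1 and 3). The same reads may therefore have been counted under both names. Single members departed from these sums. miR-214-3p stood at 566 CPM on day 1 and 556 CPM on day 3, and of the leukocyte list miR-146a-5p was higher on day 3 (2524 CPM) than on day 1 (1999.5 CPM). miR-150-5p, which made up most of the leukocyte sum on day 0 at 4733 CPM, was lower on day 3 at 3197 CPM. In the epithelial list miR-203-3p was also higher on day 3 (32.6 CPM) than on day 1 (27.1 CPM). In the myofiber list miR-133b-3p was higher on day 3 (1644 CPM) than on day 0 (1240.3 CPM), a direction that turned with the scaling. Its log2 change was 0.41 on total reads, -0.53 relative to the median miRNA and -0.52 with TMM factors. The myofiber miRNAs miR-133a-3p, miR-486a-5p and miR-499-5p were lower on day 3 (7339.9, 369.8 and 80.2 CPM) than on day 1 (12222, 423 and 184 CPM), unlike their list's sum. Every miRNA of these lists had reads in every library, the lowest being miR-208b-3p at 0.156 CPM on day 1. That value was 1 read, and miR-141-3p had 2 reads on day 0, both under the smallest detectable count of 3 reads. Cell content itself was not measured, and its part in the levels of the 4 miRNAs was not tested.

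Other miRNAs described in satellite cells or myoblasts gave a mixed picture. Of 30 such miRNAs, 29 were listed, and 12 were at least 2-fold higher and 7 lower on day 1 than on day 0, beside 36.3% and 8.02% of all miRNAs. On day 3, 13 were higher and 4 lower, beside 36.8% and 7.29%. The median log2 change of the 28 that reached 10 reads on both days was 0.57 on day 1 and 0.77 on day 3, both below the median of all miRNAs. With TMM factors, 7 were higher and 9 lower on day 1, beside 22.0% and 16.3% of all miRNAs, and 11 were higher and 7 lower on day 3, beside 23.8% and 15.8%.

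The largest rises of this list on day 1 were 3.67 for miR-222-3p and 3.45 for miR-221-3p, a pair linked to myoblast proliferation, and 3.02 for miR-214-3p. The largest falls were -2.33 for miR-133b-3p, -1.75 for miR-675-5p and -1.66 for miR-1a-3p, of which miR-1a-3p and miR-133b-3p are muscle-specific. On day 3 the largest rises were 5.63 for miR-351-5p, 4.28 for miR-222-3p and 3.86 for miR-206-3p, a muscle miRNA of regenerating fibers. The largest falls on that day were -2.07 for miR-378a-3p, -1.82 for miR-133a-3p and -1.46 for miR-486a-5p, and miR-133a-3p and miR-486a-5p are also in the myofiber list. The changes of 7.18 for miR-31-5p and 7.42 for miR-31-3p on that day were above each of these. The list was put together with earlier results of these data known and carries no test.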

How the data were processed

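Small RNA libraries of TA muscle, 1 for each of 3 time points with 4 samples pooled in each, were sequenced by the authors on the BGISEQ platform and aligned to GRCm38.p6. The submitters' processing notes name HISAT and Bowtie2, and the counting tool is not given in the sources used here. The authors deposited for each of 1138 miRNAs a read count, without normalization. A further deposited column of expression values holds whole numbers never above the read count. How the authors made these deposited score values is not stated.

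Reads were divided by the library total to give CPM. Intervals for CPM and shares are Wilson, and those for ratios of reads exact (Clopper-Pearson), both at 95%. With 1 library per time point no replicate model could be fitted and no test was run. A change was called at 2-fold over miRNAs with a read in either library. A count of 0 was set to 3 reads for calls, and none was made where both counts were at most 3. The calculation was tested on simulated Poisson reads with known fold changes, planted in miRNAs that were not scarce. The simulation held no PCR copies and no differences between pools, so it checks the code and not the error of these libraries. The miRNAs named by rule besides the 4 are partner arms, miR-497b, seed carriers, the 3 nearest in course, and the 3 largest changes past 2-fold in each direction, up to 6 a day, of the satellite cell list. miR-489-3p of that list and single members of the cell type lists were named after their values were seen. Members and lists were chosen with earlier results of these data known. Sequences came from RefSeq (953 of 1138 miRNAs matched) and GENCODE M21 transcripts. Python 3.11.15, scipy 1.17.1, R 4.3.3, edgeR 4.0.16 (TMM factors) and DESeq2 1.42.0 (size factors) were used.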

Additional observations from a re-analysis of the deposited data

How the results depend on the processing

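The direction of the changes of both miR-31 arms and of miR-195a-5p against day 0 was the same under each setting run, whereas miR-497a-5p changed sign with the scaling. With 1 library per time point leaving out a replicate was not possible, and the depth limits miR-31-3p most, with 6 reads on day 0. No paired analysis was possible because each time point is 1 library.

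For day 1 against day 0, the log2 change of miR-31-5p was 0.96 under TMM, 0.86 under the median-of-ratios factors of DESeq2 and 1.29 when the 10 most abundant miRNAs were left out of the totals. That of miR-195a-5p was 0.99, 0.89 and 1.32, and that of miR-497a-5p -0.52, -0.62 and -0.19. For day 3 against day 0, these 3 settings gave 6.25, 6.06 and 6.67 for miR-31-5p, -1.63, -1.82 and -1.21 for miR-195a-5p, and -0.34, -0.54 and 0.0734 for miR-497a-5p. For day 3 against day 1, the last 2 settings gave -2.72 and -2.53 for miR-195a-5p, and 0.0781 and 0.26 for miR-497a-5p. These scalings shift every miRNA of a comparison by the same amount.

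With 1 CPM added, miR-31-3p changed by 6.16 on day 3 against day 0. The expression values as deposited, with no scaling, gave 1.48, -0.49 and -1.97 for miR-195a-5p and 0.0258, 0.74 and 0.71 for miR-497a-5p in the same 3 comparisons, 5.84 for miR-31-5p on day 3 against day 1, and a ratio of miR-195a-5p to miR-497a-5p of 0.176 on day 3.

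The counts of miRNAs past 2-fold moved as follows, given as higher and lower. For day 1 against day 0 they were 220 and 163 under TMM, 203 and 184 under median-of-ratios, 185 and 44 with at least 10 reads in both libraries, and 207 and 16 at 4-fold, with 139 lower without the 10 top miRNAs and 50 lower with 1 CPM added. For day 3 against day 0 they were 251 and 167, 220 and 185, 201 and 48, and 239 and 29 in the same order, with 130 and 48 lower. For day 3 against day 1 they were 275 and 84 with the expression values, 93 and 75 with at least 10 reads, and 77 and 47 at 4-fold, with 91 lower with 1 CPM added. The other 50 values were within their counting interval or within 1.5 times the main count.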
